A study of Homo sapiens with 23 samples.

Results

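The genes described here are 57 genes of mitosis and the kinetochore, followed through the 8 RNA-seq libraries of the series. They were taken by name from a list. It names transcription factors of the mitotic programme, cyclins and their kinase, mitotic kinases, checkpoint and centromere proteins, spindle motors, cytokinesis factors and chromosome proteins. The choice of genes by the rule uses no expression value, though the list was drawn up with earlier results of these data known. Where a gene had several transcript rows, the row with the highest mean count stood for it. All 57 were found among the 28105 genes of the deposited tables, and all 57 passed the filter on low counts that left 16831 genes for testing. The cells were HCT116, a human colorectal cancer line, and the series set wild-type cells beside cells that lack 1 of 2 chromatin regulators. MLL4 is a methyltransferase of histone H3 lysine 4 that works at enhancers, and its gene is KMT2D. BAP1 is a deubiquitinase of the nucleus that acts on histone H2A. The 4 groups, of 2 libraries each, were WT (genotype WT), MLL4 KO, control (genotype also WT) and BAP1 KO. All were grown in the same medium, and each library was made from 1 µg of total RNA by poly(A) selection. The names of the deposited control and BAP1 KO tables carry osTir1 F74G, a plant hormone receptor variant used for induced protein degradation, which those of WT and MLL4 KO do not. The labels give neither the knockout alleles nor whether 2 replicates are separate clones or cultures, so p-values measure only the spread between these libraries. They also do not give cell density or cell cycle state at harvest.

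The mitotic programme is transcribed late in the cell cycle. MYBL2 (B-MYB) and FOXM1 join the MuvB core complex at the promoters of cyclin B, its kinase and the spindle and kinetochore genes, while in resting cells the same core, within the DREAM complex, holds these promoters silent. At the kinetochore, centromere proteins build the platform for the NDC80 complex, which grips microtubules, and the spindle checkpoint keeps CDC20 from activating the anaphase-promoting complex until each chromosome is attached. These transcripts are abundant in dividing tumour cell lines such as HCT116 and scarce in resting cells.

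The MuvB core binds the cell cycle genes homology region (CHR), and the factor NF-Y binds the CCAAT box, and both elements are known from promoters of this class. They were looked for by their letters, TTTGAA for the CHR and CCAAT for the NF-Y box, on both strands, in RefSeq promoter windows of GRCh38.p14 that run from 250 bases before to 50 after an annotated start. Windows were found for 48 of the 57 genes, with 62 starts, and not for AURKA, BIRC5, BUB3, CENPM, FOXM1, RACGAP1, TPX2, TTK and UBE2C. The CHR letters stood in 35 of the 62 windows (56.5%), against 15.2% of the 35116 windows of the table. The CCAAT letters stood in 43 (69.4%), against 34.6%, and both in 27 (43.5%), against 5.90%. Within the 60 bases before the start the CHR letters were in 32.3% of the members' windows and in 2.98% of all. Counted from the start, the median match position was -28 for the CHR and -76.5 for the CCAAT box. The median GC content was 61.3% over the members' windows and 58.7% over all. These are descriptions without a test, starts of 1 gene can overlap, and a match of letters is not a shown binding site. The 150 bases before the start are printed for 6 of the 25 genes with both motifs, each of which was lower in MLL4 KO and higher in BAP1 KO by the test below, and they were picked after those values were seen. Capitals mark TTTGAA and CCAAT or their reverse complements, TTCAAA and ATTGG. DLGAP5 lies at chr14:55191586-55191735 on the minus strand, and the others on the plus strand: KIF11 at chr10:92592980-92593129, KIF23 at chr15:69414199-69414348, CDC20 at chr1:43358831-43358980, HMMR at chr5:163460482-163460631 and ECT2 at chr3:172750576-172750725.
DLGAP5: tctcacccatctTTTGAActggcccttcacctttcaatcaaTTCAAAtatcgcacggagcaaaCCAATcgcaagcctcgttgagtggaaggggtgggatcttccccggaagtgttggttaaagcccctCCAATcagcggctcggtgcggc
KIF11: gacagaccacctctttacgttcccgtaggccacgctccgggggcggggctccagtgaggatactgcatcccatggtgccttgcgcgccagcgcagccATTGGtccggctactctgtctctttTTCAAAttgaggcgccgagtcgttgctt
KIF23: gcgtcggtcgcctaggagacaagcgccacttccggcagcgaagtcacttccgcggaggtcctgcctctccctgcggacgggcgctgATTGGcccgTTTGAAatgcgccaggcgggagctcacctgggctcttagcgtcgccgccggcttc
CDC20: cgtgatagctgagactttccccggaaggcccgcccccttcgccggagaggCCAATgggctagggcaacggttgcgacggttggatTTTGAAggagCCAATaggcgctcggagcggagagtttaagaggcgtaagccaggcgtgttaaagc
HMMR: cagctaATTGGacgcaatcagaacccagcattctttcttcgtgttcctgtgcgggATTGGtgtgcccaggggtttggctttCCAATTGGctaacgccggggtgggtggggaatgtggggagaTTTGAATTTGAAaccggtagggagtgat
ECT2: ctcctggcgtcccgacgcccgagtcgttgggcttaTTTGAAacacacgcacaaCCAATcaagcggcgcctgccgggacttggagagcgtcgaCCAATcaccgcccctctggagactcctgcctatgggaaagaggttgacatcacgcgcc
CDC20 carries the CHR letters between 2 CCAAT boxes and KIF23 close to 1, and HMMR carries 2 CHR copies end to end and a pair of CCAAT boxes on opposite strands that share letters. CDC25B, the 1 gene of the list that was higher in MLL4 KO, held no CHR letters in any of its 4 windows, but neither did 15 other genes. Of these 16 genes 9 fell in MLL4 KO, and of the 32 with CHR letters 21 fell, beside 10.0% of all tested genes. A link between the letters and the calls was not tested.

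**Figure D1:**
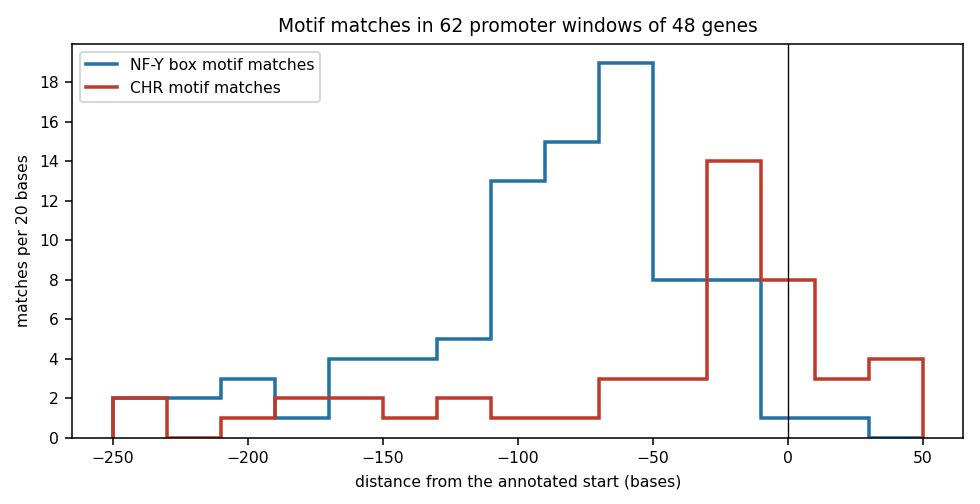
Matches of the CHR and NF-Y box motifs per 20 bases, by distance from the annotated start, over 62 promoter windows of 48 genes. NF-Y box matches pile up upstream of the CHR matches, with median positions of -76.5 and -28.

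The libraries held 24.8 to 42.2 M counts over genes, and the lowest count of any of the 57 genes in any library was 93. At the median count of the list the counting error was 1.58% to 3.04% in the WT, MLL4 KO and BAP1 KO libraries and 4.79% and 3.84% in control, where it was as large as the spread between replicates (median coefficient of variation 4.48%). The annotated spans of 16 of the 57 genes overlap a protein-coding or lncRNA gene, among them FOXM1 (ITFG2 and RHNO1), CDC25C (FAM53C) and NCAPG (LCORL), and the library kit named in the labels does not mark strand, so their reads may be shared. Levels are given as CPM (counts scaled to a common library size) after TMM scaling, a scaling that sets most genes level between libraries. Over all tested genes the median log2(CPM + 1) lay between 4.33 and 4.38 in every library. The share of counts held by the 10 most abundant genes was 10.7% and 9.44% in control and 5.11% to 7.33% in the other libraries. Epithelial markers (5 of 5 detected) differed between the compared groups, with sums of 3616 to 3656 CPM in WT, 5313 to 5332 in MLL4 KO, 5496 to 5504 in control and 2867 to 3354 in BAP1 KO. Of these, EPCAM had 214 and 282 CPM in WT and 109 and 119 in MLL4 KO, and CDH1 had 233 and 239 CPM in control and 28.0 and 70.2 in BAP1 KO. Of 5 immune markers, CD3E was at 0 in all libraries and PTPRC at or near 0, but the sum was 27.5 to 28.8 CPM in control against 4.54 to 9.81 elsewhere, nearly all of it CD68. Of 6 fibroblast and endothelial markers, DCN was at 0, COL1A2 at or near 0, and the sum of 26.0 to 56.1 CPM was nearly all COL1A1. The part of these marker differences in the results below was not tested. The mRNA of the targeted genes gives no check of the labels: KMT2D had 309 and 371 CPM in WT and 279.6 and 406 in MLL4 KO, and BAP1 had 56.7 and 62.1 in control and 67.4 and 57.4 in BAP1 KO.

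The list as a whole was highest in WT and lowest in control. Its summed level was 7241 and 9041 CPM in the WT libraries, 5989 and 5591 in MLL4 KO, 1641 and 1671 in control and 4116 and 3441 in BAP1 KO. No 2 groups overlapped in this sum, and MLL4 KO and BAP1 KO both lay between WT and control. The median gene of the list stood at 67.7% of its WT mean in MLL4 KO, 43.9% in BAP1 KO and 17.2% in control. In bulk RNA, fewer cells in mitosis and less of these mRNAs per cell cannot be told apart.

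**Figure D2:**
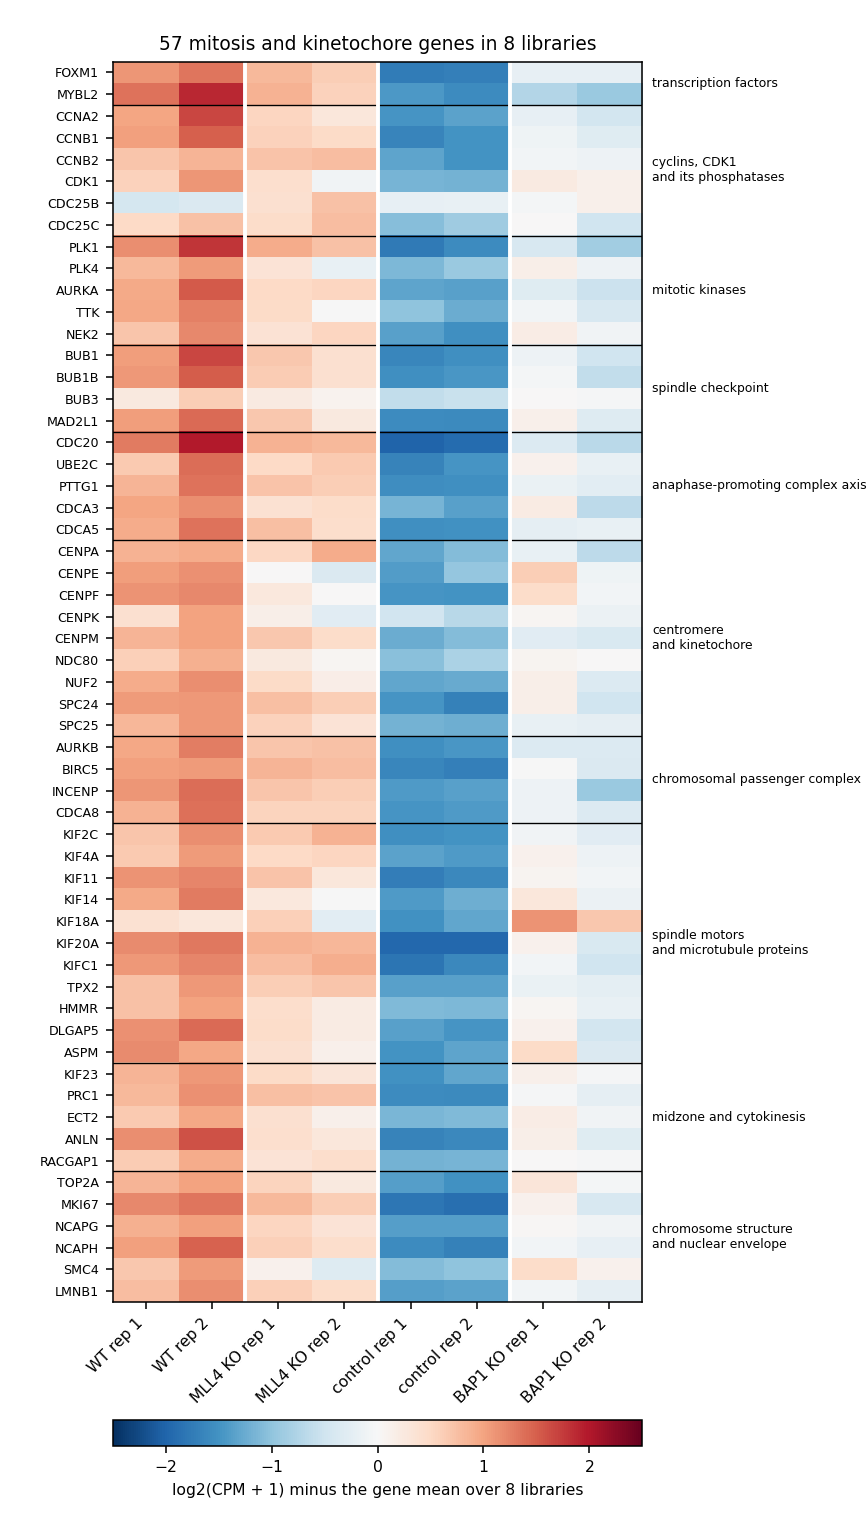
Each row is 1 of the 57 genes, ordered by role, and each column 1 library. Colour gives log2(CPM + 1) minus the gene's mean over the 8 libraries. The 2 control columns are low in all rows but CDC25B, and both knockouts fall between WT and control in most rows.

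In MLL4 KO against WT, 33 of the 57 genes fell, 1 rose (CDC25B) and 23 did not pass (edgeR quasi-likelihood test, Benjamini-Hochberg adjusted p under 0.05 over all tested genes). Of all tested genes 19.1% passed in this comparison, 10.0% lower and 9.13% higher. The median log2 change was -0.56 over the list and 0.00393 over all tested genes. In 51 of the 57 genes both MLL4 KO libraries lay below both WT libraries, which held for 30.3% of all tested genes, and in CDC25B they lay above (30.0%). In sign, 56 of the 57 changes were negative, and 54 with upper-quartile scaling. The falls were modest, and the number of calls rests on single libraries. The count past the threshold in either direction was 34 genes. Most of these calls were lost with WT replicate 2 or MLL4 KO replicate 2 left out, where the median log2 change of the list was -0.40 and -0.45. Calls over all tested genes also became far fewer in the same fits, though the list lost a larger share of its calls. Most were also lost with control replicate 1 or 2 left out (medians -0.54 and -0.57), although control is not part of the contrast. The fit shares 1 estimate of the spread over all 8 libraries. Replicates lay closest in control, with a median absolute log2 difference over tested genes of 0.0958, against 0.289 in WT and 0.222 in MLL4 KO. The SE and p-values of this contrast thus draw on the spread of control too. The count was 0 when only the 4 WT and MLL4 KO libraries were fitted, where 60 genes in all passed and 42 of the list had an unadjusted p under 0.05. The 20 genes of the list whose MLL4 KO call is described below lost it in 1 (CDC25B) to 11 (CDCA8 and LMNB1) of 18 alternatives, with a median of 5.

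In BAP1 KO against control the direction was the opposite: 55 of the 57 genes rose, none fell, and CDC25B and CENPK did not pass. Of all tested genes 22.4% passed in this comparison, 12.1% higher and 10.4% lower. The median log2 change was 1.36 over the list and 0.0135 over all tested genes. Both BAP1 KO libraries lay above both control libraries in 57 of 57 genes, against 37.0% of all tested genes. The median log2 change of the list lay between 1.17 and 1.48 when 1 library was left out. Without a control or BAP1 KO library some calls of the list were lost. Over all tested genes most calls were lost without control replicate 1, control replicate 2 or BAP1 KO replicate 1, and fewer without BAP1 KO replicate 2. Of the 29 calls described below, 24 were kept in each of the 17 alternatives.

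**Figure D3:**
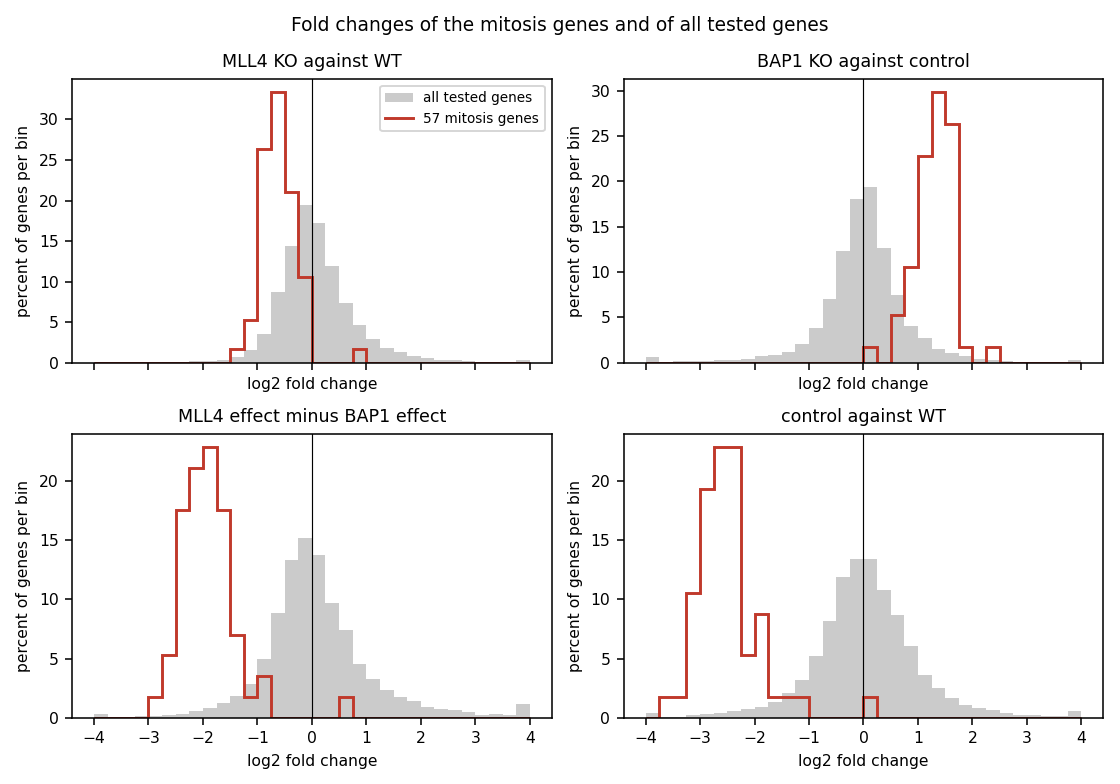
Distribution of log2 fold changes in 0.25 bins for all tested genes (grey) and the 57 mitosis genes (red line) in the 4 comparisons, as percent of each set, with changes beyond 4 in the end bins. The red line lies mostly left of 0 in MLL4 KO and in control, and right of 0 in BAP1 KO.

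Both transcription factors fell in MLL4 KO and rose in BAP1 KO. The falls lost their calls in 5 (FOXM1) and 3 (MYBL2) of 18 alternatives. FOXM1, the forkhead activator of late mitotic genes, had 139.9 and 164 CPM in the WT libraries, 115 and 98.7 in MLL4 KO, 18.6 and 19.2 in control and 56.1 and 55.5 in BAP1 KO. No 2 of its groups overlapped. It fell by 0.51 ± 0.13 (log2 scale, SE) in MLL4 KO (edgeR adjusted p = 0.0266) and rose by 1.56 ± 0.13 in BAP1 KO (adjusted p = 0.000142). MYBL2, which helps bring FOXM1 to MuvB, had 162 and 236 CPM in the WT libraries, 116 and 93.6 in MLL4 KO, 22.6 and 20.4 in control and 37.6 and 32.4 in BAP1 KO. Its BAP1 KO libraries stayed at 17.6% of the WT mean, the lowest share in the list. MYBL2 fell by 0.93 ± 0.19 in MLL4 KO (adjusted p = 0.0156) and rose by 0.71 ± 0.20 in BAP1 KO (adjusted p = 0.0299), and the rise lost its call without any 1 of the 4 control and BAP1 KO libraries (adjusted p = 0.0648 to 0.212).

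Among the cyclins, their kinase and its phosphatases, 3 of 6 fell and 1 rose in MLL4 KO, and 5 of 6 rose in BAP1 KO. CCNB1, the cyclin that drives entry into mitosis, had 206 and 286 CPM in the WT libraries, 150.0 and 142 in MLL4 KO, 31.4 and 34.9 in control and 92.8 and 80.9 in BAP1 KO. It fell by 0.76 ± 0.16 in MLL4 KO (adjusted p = 0.0179) and rose by 1.39 ± 0.17 in BAP1 KO (adjusted p = 0.000684). Its partner CDK1 had 86.6 and 125 CPM in the WT libraries, 77.7 and 54.3 in MLL4 KO, 25.1 and 24.7 in control and 67.1 and 62.8 in BAP1 KO. The CDK1 levels of the knockouts overlapped each other, and its changes were -0.68 ± 0.20 (adjusted p = 0.0449, lost in 10 of 18 alternatives) and 1.38 ± 0.21 (adjusted p = 0.00214). CCNB2, the second B-type cyclin, differed from CCNB1 in MLL4 KO: it had 60.7 and 67.2 CPM in the WT libraries, 61.4 and 63.7 in MLL4 KO, 14.1 and 12.4 in control and 35.2 and 33.6 in BAP1 KO. The MLL4 KO values of CCNB2 lay within the WT range, with a change of -0.03 ± 0.12 (adjusted p = 0.873), and in BAP1 KO it rose by 1.38 ± 0.13 (adjusted p = 0.000244). CCNB2 in MLL4 KO, like CENPE, KIF18A, CENPK and CDC25C below and CDC25B and KIF18A outside the MLL4 KO comparison, was singled out after the values were seen.

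CDC25B, the phosphatase that starts CDK1 activation at the centrosome, differed from most of the list in every comparison. It had 291 and 308 CPM in the WT libraries, 521 and 657 in MLL4 KO, 341 and 345 in control and 383 and 429 in BAP1 KO. All MLL4 KO values were above all others, and WT was the lowest group, where for the other 56 genes control was lower than WT. CDC25B rose by 0.98 ± 0.14 in MLL4 KO (adjusted p = 0.00677), a call kept in each fit that left out 1 library and lost in the fit of the 4 libraries alone (adjusted p = 0.0639). Its changes in BAP1 KO (0.24 ± 0.14, adjusted p = 0.238) and in control against WT (0.20 ± 0.14, adjusted p = 0.28) did not pass. CDC25C, the related phosphatase of mitotic entry, had 14.7 and 17.3 CPM in the WT libraries, 14.1 and 17.8 in MLL4 KO, 4.27 and 4.92 in control and 10.1 and 6.77 in BAP1 KO. Its WT and MLL4 KO libraries overlapped.

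All 5 mitotic kinases rose in BAP1 KO, and 3 of 5 fell in MLL4 KO (PLK4, AURKA and TTK). AURKA, which matures centrosomes, had 75.3 and 113 CPM in the WT libraries, 54.8 and 56.6 in MLL4 KO, 14.9 and 14.5 in control and 31.3 and 26.5 in BAP1 KO. It fell by 0.76 ± 0.18 in MLL4 KO (adjusted p = 0.0243) and rose by 0.97 ± 0.19 in BAP1 KO (adjusted p = 0.0073). PLK1, the polo-like kinase of centrosomes, kinetochores and the midzone, had 179.7 and 279 CPM in the WT libraries, 153 and 133 in MLL4 KO, 22.9 and 26.2 in control and 60.3 and 43.2 in BAP1 KO. The groups of PLK1 did not overlap, but its WT libraries lay far apart and the MLL4 KO change of -0.68 ± 0.22 did not pass (adjusted p = 0.0622). In BAP1 KO it rose by 1.07 ± 0.23 (adjusted p = 0.0126). The rises of AURKA and PLK1 lost their calls without control replicate 1, control replicate 2 or BAP1 KO replicate 1 (adjusted p = 0.0589 to 0.106). TTK, the checkpoint kinase that starts signalling at unattached kinetochores, had 53.0 and 64.5 CPM in WT and 37.1 and 26.5 in MLL4 KO and fell by 0.89 ± 0.20 (adjusted p = 0.0201). NEK2, a kinase of centrosome separation, had 9.20 and 8.05 CPM in control and 28.6 and 23.5 in BAP1 KO and rose by 1.60 ± 0.21 (adjusted p = 0.00094).

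Of the 4 checkpoint genes 3 fell in MLL4 KO and all 4 rose in BAP1 KO. BUB1, the kinase that recruits the checkpoint to kinetochores, had 113 and 175 CPM in the WT libraries, 87.8 and 71.8 in MLL4 KO, 17.0 and 18.2 in control and 50.1 and 38.5 in BAP1 KO. It fell by 0.85 ± 0.21 in MLL4 KO (adjusted p = 0.0291) and rose by 1.33 ± 0.23 in BAP1 KO (adjusted p = 0.00393). MAD2L1, which captures CDC20, had 119 and 153 CPM in the WT libraries, 91.1 and 68.0 in MLL4 KO, 18.4 and 18.1 in control and 62.2 and 45.1 in BAP1 KO. Its changes were -0.77 ± 0.20 (adjusted p = 0.029) and 1.56 ± 0.21 (adjusted p = 0.00119). BUB3, the binding partner of BUB1 and BUB1B, did not pass in MLL4 KO (-0.29 ± 0.14, adjusted p = 0.161): it had 221 and 285 CPM in the WT libraries, 217 and 198 in MLL4 KO, 121 and 127 in control and 186 and 183 in BAP1 KO. Its control mean was 48.9% of WT, against 12.2% for BUB1 and 13.4% for MAD2L1. BUB1B shares reads with the readthrough gene BUB1B-PAK6, so its level is uncertain.

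On the anaphase-promoting complex axis 2 of 5 genes fell in MLL4 KO and all 5 rose in BAP1 KO. CDC20, the activator of that complex, had 264 and 428 CPM in the WT libraries, 196 and 189 in MLL4 KO, 25.9 and 27.4 in control and 84.7 and 67.0 in BAP1 KO. Its control mean was 7.70% of WT, the lowest share of the 57 genes, and no 2 groups overlapped. CDC20 fell by 0.84 ± 0.21 in MLL4 KO (adjusted p = 0.0278) and rose by 1.51 ± 0.22 in BAP1 KO (adjusted p = 0.00187). UBE2C, the ubiquitin-conjugating enzyme of the complex, had 77.5 and 130.3 CPM in the WT libraries, 68.8 and 77.4 in MLL4 KO, 14.7 and 16.9 in control and 52.6 and 42.9 in BAP1 KO. Here 1 MLL4 KO library all but reached the lower WT library, and the change of -0.51 ± 0.22 did not pass (adjusted p = 0.137), while in BAP1 KO UBE2C rose by 1.59 ± 0.24 (adjusted p = 0.00241). PTTG1 (securin), which holds separase inactive until anaphase, had 56.9 and 81.8 CPM in the WT libraries, 51.9 and 48.1 in MLL4 KO, 9.95 and 10.1 in control and 27.9 and 25.8 in BAP1 KO. It has near-identical copies in the genome, so its reads may be split, and it changed by -0.47 ± 0.17 in MLL4 KO (adjusted p = 0.0749) and rose by 1.42 ± 0.18 in BAP1 KO (adjusted p = 0.00094). CDCA5 (sororin), which protects sister chromatid cohesion, had 21.1 and 21.3 CPM in control and 53.4 and 55.1 in BAP1 KO and rose by 1.36 ± 0.17 (adjusted p = 0.000821).

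Of the 9 centromere and kinetochore genes, 6 fell in MLL4 KO and 8 rose in BAP1 KO. CENPF, a large kinetochore protein, had 314 and 333 CPM in the WT libraries, 172 and 145 in MLL4 KO, 50.9 and 50.7 in control and 197 and 138 in BAP1 KO. The knockouts overlapped each other and lay apart from WT and control. CENPF fell by 1.03 ± 0.17 in MLL4 KO (adjusted p = 0.01; 0.0575 without MLL4 KO replicate 2) and rose by 1.72 ± 0.17 in BAP1 KO (adjusted p = 0.000324). CENPE, the kinetochore motor that moves chromosomes to the spindle equator, had 57.3 and 61.1 CPM in the WT libraries, 27.4 and 21.1 in MLL4 KO, 9.79 and 13.5 in control and 42.2 and 25.4 in BAP1 KO. Its MLL4 KO mean of 41.0% of WT was the lowest of the list in that group, a fall of 1.28 ± 0.25 on the log2 scale (adjusted p = 0.0155; 0.0819 without WT replicate 2 and 0.0879 without MLL4 KO replicate 2). CENPA, the histone variant that marks the centromere, had 19.9 and 21.0 CPM in the WT libraries, 15.4 and 20.8 in MLL4 KO, 3.64 and 4.41 in control and 9.13 and 6.30 in BAP1 KO. CENPA overlapped between WT and MLL4 KO (-0.18 ± 0.21, adjusted p = 0.567) and rose in BAP1 KO by 0.93 ± 0.25 (adjusted p = 0.0272), a call lost without control replicate 1, control replicate 2 or BAP1 KO replicate 1 (adjusted p = 0.109 to 0.214) and with limma-voom (0.0506).

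NDC80, the microtubule-gripping subunit of the outer kinetochore, had 34.8 and 43.0 CPM in the WT libraries, 27.3 and 23.7 in MLL4 KO, 10.5 and 12.7 in control and 24.0 and 22.9 in BAP1 KO. Its MLL4 KO and BAP1 KO libraries overlapped. NDC80 fell by 0.61 ± 0.16 in MLL4 KO (adjusted p = 0.0315) and rose by 1.01 ± 0.17 in BAP1 KO (adjusted p = 0.00333; 0.0507 without control replicate 1). Its partner NUF2 had 33.6 and 40.2 CPM in the WT libraries, 24.6 and 19.5 in MLL4 KO, 6.46 and 6.64 in control and 19.4 and 13.5 in BAP1 KO. SPC24, which anchors the complex, had 28.0 and 28.7 CPM in the WT libraries, 22.5 and 20.5 in MLL4 KO, 4.00 and 3.33 in control and 14.4 and 8.94 in BAP1 KO. All groups of NUF2 and SPC24 were apart from each other, though the NUF2 knockouts nearly met (19.5 CPM in MLL4 KO, 19.4 in BAP1 KO). CENPK, of the constitutive centromere network, was among the lowest of the list, with 11.6 and 18.1 CPM in the WT libraries, 9.49 and 6.87 in MLL4 KO, 5.84 and 4.92 in control and 8.90 and 7.59 in BAP1 KO. Its BAP1 KO libraries lay above control without passing (0.63 ± 0.28, adjusted p = 0.134; 0.0268 in the fit of the 4 libraries alone).

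In the chromosomal passenger complex, which corrects faulty attachments, 1 of 4 genes fell in MLL4 KO (CDCA8) and all 4 rose in BAP1 KO. AURKB, its kinase, had 85.2 and 106 CPM in the WT libraries, 70.7 and 72.6 in MLL4 KO, 14.2 and 15.2 in control and 33.6 and 33.8 in BAP1 KO. The replicates of AURKB lay close within each group but WT, and its changes were -0.41 ± 0.13 (adjusted p = 0.0523) in MLL4 KO and 1.19 ± 0.14 (adjusted p = 0.000581) in BAP1 KO. CDCA8 (borealin), its targeting subunit, had 71.5 and 102 CPM in WT and 57.2 and 57.5 in MLL4 KO and fell by 0.60 ± 0.17 (adjusted p = 0.0382). That call was lost in 11 of 18 alternatives, upper-quartile scaling among them (adjusted p = 0.0507), and the change was -0.32 without WT replicate 2. BIRC5 (survivin) had 195 and 202 CPM in the WT libraries, 174 and 165 in MLL4 KO, 30.2 and 28.5 in control and 95.2 and 73.9 in BAP1 KO. BIRC5 rose by 1.53 ± 0.14 in BAP1 KO (adjusted p = 0.000213).

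All 11 spindle motors and microtubule proteins rose in BAP1 KO and 5 of 11 fell in MLL4 KO. KIF11, the motor that pushes spindle poles apart, had 93.6 and 101 CPM in the WT libraries, 70.2 and 52.2 in MLL4 KO, 12.1 and 13.3 in control and 44.7 and 40.8 in BAP1 KO. It fell by 0.67 ± 0.15 in MLL4 KO (adjusted p = 0.0214) and rose by 1.75 ± 0.16 in BAP1 KO (adjusted p = 0.000227). KIF14, a motor of cytokinesis, had 64.0 and 82.3 CPM in WT and 39.3 and 32.8 in MLL4 KO, and fell by 1.02 ± 0.19 (adjusted p = 0.0124). KIF20A, which carries the passenger complex to the midzone, had 93.0 and 103 CPM in the WT libraries, 75.3 and 73.1 in MLL4 KO, 9.71 and 9.69 in control and 43.7 and 31.2 in BAP1 KO. Its control libraries were nearly the same and at 9.89% of WT. KIF20A changed by -0.40 ± 0.16 in MLL4 KO (adjusted p = 0.0952) and rose by 1.95 ± 0.17 in BAP1 KO (adjusted p = 0.000171). TPX2, which seeds spindle microtubules and activates AURKA, had 271 and 347 CPM in the WT libraries, 253 and 264 in MLL4 KO, 63.3 and 62.9 in control and 146 and 138 in BAP1 KO. It changed by -0.26 ± 0.13 (adjusted p = 0.191) and 1.17 ± 0.14 (adjusted p = 0.000589). KIF4A has a near-identical copy (KIF4B) and HMMR an overlapping antisense gene, so their levels are uncertain.

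KIF18A, the motor that damps chromosome oscillations, stood apart. It had 45.7 and 42.8 CPM in the WT libraries, 53.4 and 29.0 in MLL4 KO, 11.5 and 13.6 in control and 77.3 and 56.4 in BAP1 KO. Both BAP1 KO libraries exceeded all WT, MLL4 KO and control libraries, which held for no other of the 57 genes, and the MLL4 KO libraries lay on both sides of WT. Its rise of 2.41 ± 0.29 in BAP1 KO was the largest of the list (adjusted p = 0.00103; 2.16 to 2.62 over the alternatives), and its change in MLL4 KO was -0.10 ± 0.27 (adjusted p = 0.821). In the group means BAP1 KO reached 151% of WT. For 55 of the 57 genes both BAP1 KO libraries lay below both WT libraries, against 34.3% of all tested genes, and the 2 that lay above were KIF18A and CDC25B (36.4%).

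**Figure D4:**
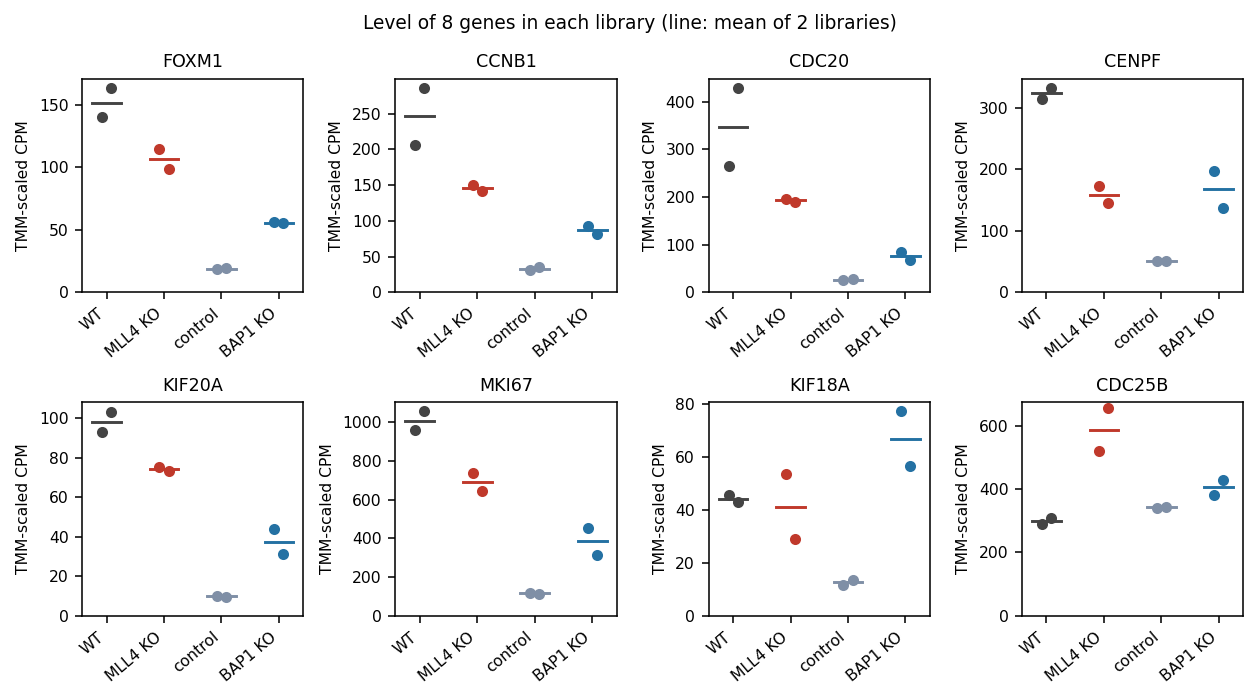
TMM-scaled CPM of 8 genes in each library (points) with the mean of 2 libraries (line), on linear axes that start at 0. FOXM1, CCNB1, CDC20, KIF20A and MKI67 share the order WT, MLL4 KO, BAP1 KO, control, in CENPF the knockouts overlap, in KIF18A BAP1 KO is highest, and in CDC25B MLL4 KO is highest.

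The genes of the midzone and cytokinesis all rose in BAP1 KO, and 3 of 5 fell in MLL4 KO. ANLN (anillin), the scaffold of the contractile ring, had 197 and 267 CPM in the WT libraries, 118 and 106 in MLL4 KO, 26.7 and 27.9 in control and 97.2 and 70.6 in BAP1 KO. ANLN fell by 1.05 ± 0.18 in MLL4 KO (adjusted p = 0.0109; 0.0663 without MLL4 KO replicate 2) and rose by 1.62 ± 0.19 in BAP1 KO (adjusted p = 0.000615). KIF23, the motor subunit of centralspindlin, had 21.4 and 24.8 CPM in control and 68.7 and 61.8 in BAP1 KO and rose by 1.49 ± 0.14 (adjusted p = 0.000244). RACGAP1, its partner subunit, had 122 and 151 CPM in the WT libraries, 99.4 and 108 in MLL4 KO, 34.3 and 34.5 in control and 79.6 and 77.2 in BAP1 KO. PRC1 and KIF23 overlap antisense genes.

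Among the chromosome and nuclear envelope genes all 6 rose in BAP1 KO and 5 fell in MLL4 KO. MKI67, the Ki-67 proliferation marker that coats mitotic chromosomes, had 959 and 1056 CPM in the WT libraries, 737 and 642 in MLL4 KO, 119 and 113 in control and 452 and 316 in BAP1 KO. Its groups did not overlap, but its MLL4 KO change of -0.55 ± 0.17 did not pass (adjusted p = 0.0504). It passed in 7 of 18 alternatives, over which the adjusted p ran from 0.0132 (DESeq2) to 0.24. In BAP1 KO it rose by 1.72 ± 0.18 (adjusted p = 0.000324). TOP2A, which untangles sister chromatids, had 214 and 238 CPM in the WT libraries, 175 and 139 in MLL4 KO, 44.6 and 40.6 in control and 147 and 114 in BAP1 KO. It changed by -0.52 ± 0.16 (adjusted p = 0.0481, lost in 10 of 18 alternatives) and 1.61 ± 0.17 (adjusted p = 0.000329). SMC4, the core of condensin, had 172 and 225 CPM in WT and 117 and 86.4 in MLL4 KO and fell by 0.97 ± 0.19 (adjusted p = 0.0155). Its whole annotated span lies within the readthrough TRIM59-IFT80, so its level is uncertain. NCAPG, a condensin subunit, had 149.9 and 165 CPM in the WT libraries, 117 and 102 in MLL4 KO, 30.1 and 30.3 in control and 81.7 and 75.5 in BAP1 KO, and rose by 1.38 ± 0.13 in BAP1 KO (adjusted p = 0.000193). LMNB1 (lamin B1), the lamina protein, had 194 and 254 CPM in the WT libraries, 169.6 and 154 in MLL4 KO, 42.9 and 44.2 in control and 107 and 96.7 in BAP1 KO. It fell by 0.47 ± 0.14 (adjusted p = 0.0489, lost in 11 of 18 alternatives) and rose by 1.23 ± 0.15 (adjusted p = 0.00071).

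**Figure D5:**
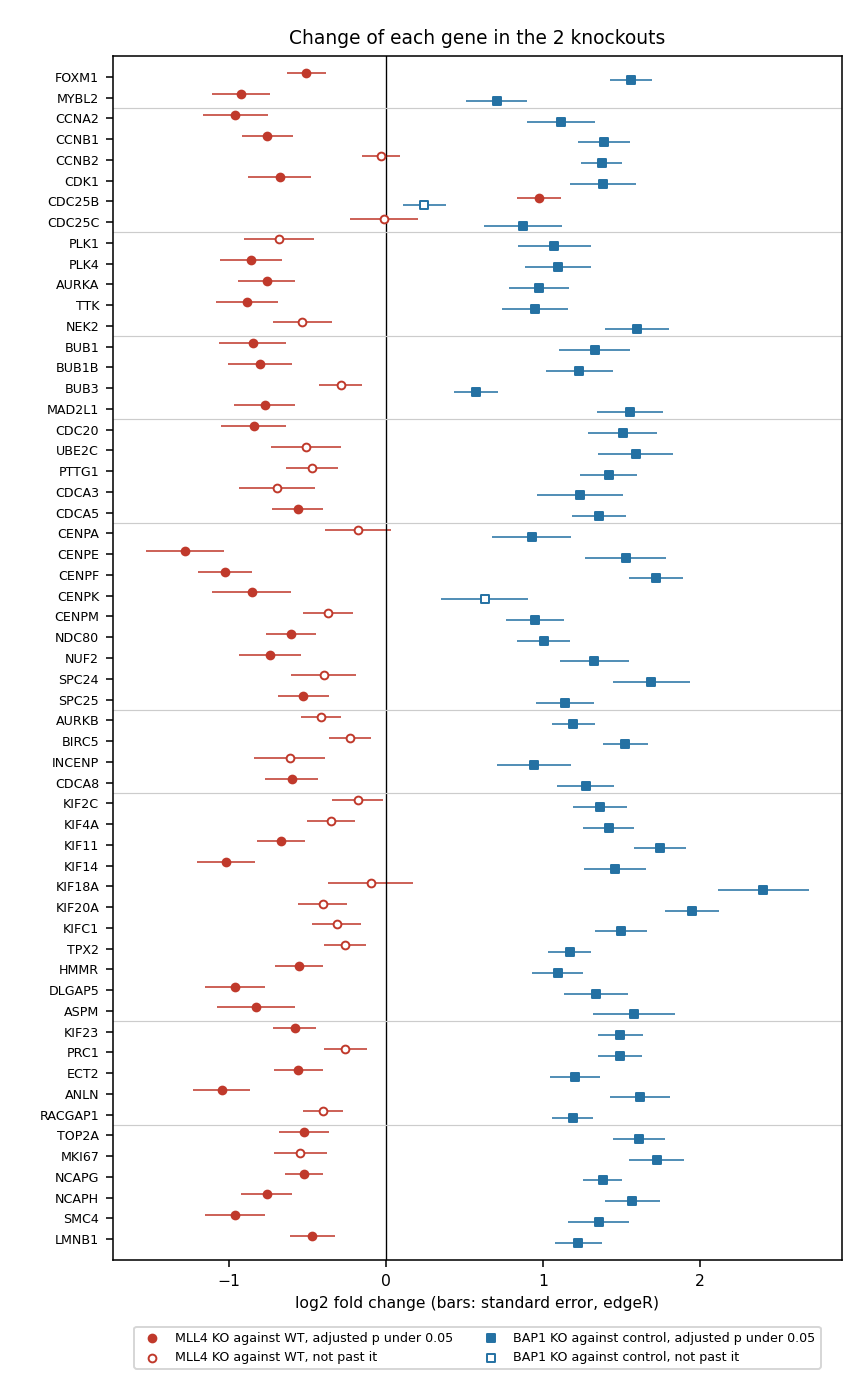
Log2 fold change with its SE for each of the 57 genes in MLL4 KO against WT (red circles) and BAP1 KO against control (blue squares), in order of role. Filled points have an adjusted p under 0.05 (34 red, 55 blue). Red points lie left of 0 for all genes but CDC25B (54 of 57 with upper-quartile scaling), and blue points right of 0 for all.

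The difference between the knockout effects was tested in the same fit. The MLL4 KO effect minus the BAP1 KO effect was lower for 55 of the 57 genes, higher for CDC25B and did not pass for CDC25C. Of all tested genes 16.1% passed, 8.32% lower and 7.75% higher. The median difference was -1.92 over the list and -0.0172 over all tested genes. The 5 genes with the smallest p were CENPF (-2.75 ± 0.24), FOXM1 (-2.07 ± 0.18), NCAPG (-1.91 ± 0.17), KIF11 (-2.42 ± 0.22) and KIF23 (-2.08 ± 0.20), with adjusted p from 0.000601 to 0.000754. For CDC25B it was 0.73 ± 0.19 (adjusted p = 0.0335; 0.0545 to 0.135 without MLL4 KO replicate 2 or any 1 of the control and BAP1 KO libraries), and for CDC25C -0.89 ± 0.33 (adjusted p = 0.0976). Because each knockout has its own unedited group, the difference also holds whatever sets those groups apart, and the 2 cannot be told apart.

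The unedited groups were themselves far apart. In control against WT 56 of the 57 genes fell, with CDC25B the exception, where 39.6% of all tested genes passed and 19.7% were lower. The median log2 difference was -2.54 over the list and 0.0174 over all tested genes. Both control libraries lay below both WT libraries in 56 genes, against 35.7% of all tested genes, and above them in CDC25B (37.9%). FOXM1 (-3.01 ± 0.14), AURKB (-2.70 ± 0.14), BIRC5 (-2.76 ± 0.15), KIF20A (-3.34 ± 0.18) and NCAPG (-2.38 ± 0.13) had the smallest p, each with an adjusted p of 1.13e-05. The fall was largest for CDC20 (-3.70 ± 0.23, adjusted p = 1.92e-05) and, among the genes that passed, smallest for BUB3 (-1.03 ± 0.14, adjusted p = 0.000584), which like CDC20 was singled out after its value was seen. This comparison shares the WT and control libraries with the knockout comparisons, so for each gene its value belongs beside theirs and adds no independent support to them. The labels give both groups the genotype WT, and whether the line, the osTir1 F74G background, growth or handling goes with the difference cannot be told apart.

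Between the knockouts, both MLL4 KO libraries lay above both BAP1 KO libraries in 45 of the 57 genes (31.2% of all tested genes). KIF18A was the 1 gene with the reverse order (32.0% of all tested genes). Since the knockouts have different unedited groups, these orders also hold whatever sets WT and control apart. The knockout libraries overlapped in 11 genes: CDK1, PLK4, CENPE, CENPF, CENPK, NDC80, KIF14, ASPM, ECT2, TOP2A and SMC4.

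Replicates differed by more in 3 groups than in control. WT replicate 2 was the higher of its pair in 55 of the 57 genes, with a median log2(CPM + 1) difference of 0.30 between the libraries, and BAP1 KO replicate 1 was the higher in 54, with a median of 0.26. Over all tested genes replicate 1 was the higher in 47.8% for WT and 50.0% for BAP1 KO. In MLL4 KO replicate 1 was the higher in 42 genes, with a median of 0.20, and in control replicate 2 in 35, with a median size of 0.09. The median change of -0.56 in MLL4 KO stands beside these differences between replicates. The median coefficient of variation over 2 libraries was lowest in control at 4.48%, and it was 10.5% for MLL4 KO, 13.3% for BAP1 KO and 14.9% for WT.

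Levels between genes were compared per transcript length with the deposited RPKM values. In WT, CDC20 was the most abundant of the list at 167 ± 52 RPKM (SD, n = 2) and CENPE the least at 5.55 ± 0.11. CDC25B ranked at place 7 in WT and first in MLL4 KO, control and BAP1 KO.

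A wider list of 108 other genes of the kinetochore, cohesion, condensin, the anaphase-promoting complex, the spindle, mitotic entry and the MuvB and DREAM complexes gave the setting. In MLL4 KO 36 of the 108 fell and 1 rose (RBL2), against 10.0% and 9.13% of all tested genes, with a median log2 change of -0.38. In BAP1 KO 63 rose and 2 fell (ANAPC11 and E2F5), against 12.1% and 10.4% of all tested genes, with a median of 0.66. SGO2 (shugoshin), which guards centromeric cohesion, had 40.1 and 53.7 CPM in WT and 18.0 and 12.2 in MLL4 KO, a fall of 1.63 ± 0.24 (adjusted p = 0.00712). SKA3, a subunit that couples kinetochores to microtubules, had 46.0 and 60.9 CPM in WT and 24.4 and 21.1 in MLL4 KO, a fall of 1.23 ± 0.16 (adjusted p = 0.00581). SMC3, a cohesin ring subunit, fell by 1.26 ± 0.20 (adjusted p = 0.00942; 0.0543 without MLL4 KO replicate 2) and HAUS6, of the augmin complex, by 1.15 ± 0.21 (adjusted p = 0.0121; 0.0527 without WT replicate 2 and 0.0584 without MLL4 KO replicate 2). In BAP1 KO the smallest p belonged to GTSE1, a microtubule-binding protein of mitotic entry, which had 7.83 and 7.87 CPM in control and 37.4 and 30.2 in BAP1 KO and rose by 2.11 ± 0.17 (adjusted p = 0.000108). PSRC1 rose by 1.67 ± 0.15, NUSAP1 by 1.46 ± 0.15 and CIT (citron kinase) by 1.67 ± 0.17, all factors of the spindle or cytokinesis, with adjusted p from 0.000192 to 0.000329.

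By subgroup of this wider list the BAP1 KO counts stand beside 12.1% higher and 10.4% lower of all tested genes, and no difference between subgroups was tested. All 5 further condensin genes, 18 of 21 spindle and cytokinesis genes, 9 of 10 mitotic entry genes and 22 of 31 kinetochore genes rose. Among the 13 checkpoint and cohesion genes 5 rose and none fell, with a median of 0.39. Of the 17 anaphase-promoting complex genes 4 rose and 1 fell, with a median of 0.02, and of the 11 MuvB and DREAM genes none rose and 1 fell, with a median of 0.18. RBL2 (p130), the pocket protein of the DREAM complex, had 39.2 and 32.4 CPM in the WT libraries, 46.9 and 55.0 in MLL4 KO, 67.8 and 69.9 in control and 71.0 and 66.6 in BAP1 KO. Its order over the groups was near the reverse of the mitotic genes, with control and BAP1 KO overlapping. RBL2 and E2F5 do not stand for the 11 MuvB and DREAM genes. In MLL4 KO 3 of these fell and 1 rose (median -0.28), beside 10.0% and 9.13% of all tested genes. In control against WT 6 fell and 2 rose (median -0.51), beside 19.7% and 19.9%. RBL2 rose by 0.51 ± 0.14 in MLL4 KO (adjusted p = 0.0337), a call that ended without any 1 library but WT replicate 1 or MLL4 KO replicate 1 (adjusted p = 0.0562 to 0.156). E2F5, the E2F partner in DREAM, had 8.69 and 9.47 CPM in the WT libraries, 12.0 and 12.5 in MLL4 KO, 25.9 and 25.0 in control and 14.7 and 17.3 in BAP1 KO. It fell by 0.67 ± 0.15 in BAP1 KO (adjusted p = 0.013) and ANAPC11, the RING subunit of the anaphase-promoting complex, by 0.56 ± 0.11 (adjusted p = 0.00819), both calls lost without control replicate 1, control replicate 2 or BAP1 KO replicate 1 (adjusted p = 0.0627 to 0.113). Counts past the threshold in the wider list rested on single libraries too. In MLL4 KO the 37 became 0 in the fit of the 4 libraries alone, 3 with WT replicate 2 left out, 2 with MLL4 KO replicate 2 left out, and 13 or 14 with control replicate 1 or 2 left out. In BAP1 KO the 65 became 33 and 30 without control replicates 1 and 2 and 36 without BAP1 KO replicate 1.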

How the data were processed

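Each library has a table of read counts per RefSeq transcript, whole numbers that the authors deposited without normalization, and of RPKM, which the authors scaled to length and depth, per the file headers. The submitters' processing notes name hg38, bcl2fastq, Bowtie2, STAR and SICER 1.1 without their use, with the counter, strand setting and annotation release not given in the sources used here. The 15 ChIP samples were not analysed here.

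Transcripts were matched to symbols through RefSeq (GRCh38.p14). The 605 rows without a symbol (0.23% to 0.252% of counts) were left out, and the row with the highest mean count stood for each of 28105 genes. The 57 genes, the wider list, the marker lists and the alternatives were chosen with earlier results of these data known. Counts were tested with edgeR 4.0.16 (R 4.3.3): filterByExpr by group, TMM, 1 quasi-likelihood fit over 8 libraries with a mean per group, robust and not legacy, two-sided, Benjamini-Hochberg over 16831 genes, threshold 0.05. SE is the log2 change over the root of F. Depth was 24.8 to 42.2 M counts per library, and the lowest count of the list was 93. At the lowest count of the list the counting error was 10.4% and 8.77% in the control libraries, a limit for the lowest genes.

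Tests are printed for a set panel, the gene with the smallest p in each role, genes called against the majority, and the 5 smallest p in the difference and in control against WT, plus genes said to be singled out. Of the wider list, they are the 4 smallest p and the opposed calls. DESeq2 1.42.0, limma-voom (limma 3.58.1), other scalings and filters, summed transcript rows, a replicate block, 4-library fits and leaving out each library were alternatives. Same-numbered replicates of the 2 groups compared did not deviate together (correlation -0.134 and 0.00288). Promoter letters were read from RefSeq and described without a test.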

Additional observations from a re-analysis of the deposited data

Results flagged for a closer look

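A test of the difference between the MLL4 KO and BAP1 KO effects, as a contrast in the same edgeR fit, passed its threshold for 56 of the 57 genes. Of all tested genes 16.1% passed, 8.32% lower and 7.75% higher. Each effect is taken against its own unedited group, so the difference also holds whatever sets WT and control apart. Among the 5 with the smallest p the log2 difference was -2.75 for CENPF, -2.07 for FOXM1, -1.91 for NCAPG, -2.42 for KIF11 and -2.08 for KIF23.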

How the results depend on the processing

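For control against WT 56 genes of the list passed under each alternative. For BAP1 KO against control 42 to 55 of the 55 passed when 1 library was left out, and 53 to 56 under the other settings. For the difference of the effects 49 to 56 passed when 1 library was left out and 55 or 56 otherwise. For MLL4 KO against WT 24 to 41 of the list passed under the other settings (24 with upper-quartile scaling, 41 with DESeq2), but 0 passed in the fit of the 4 libraries alone (42 of them at an unadjusted p under 0.05), and 1 to 44 passed when 1 library was left out. Of the wider list 0 passed there, and 2 to 55 when 1 library was left out. In BAP1 KO 30 to 68 of the wider list passed when 1 library was left out. Where a group keeps 1 library, that library is assumed to vary like the other groups. The cause of these losses was not tested. The fit of the 4 BAP1 KO and control libraries, which is as small, kept all 55 calls of the list. Each 4-library fit estimates the spread from its own libraries alone. The main fit pools that spread over all groups, control among them, where replicates lay closest. In sign, 5 of the 57 genes reversed in 1 or more settings, all in MLL4 KO and with adjusted p of 0.401 or above. These were CENPA (-0.3857 to 0.0196 when 1 library was left out, reversed without MLL4 KO replicate 1), CCNB2 (0.0539 with upper-quartile scaling, -0.1058 to 0.0444 when 1 library was left out, reversed without WT replicate 2), KIF18A (-0.6107 to 0.2932, reversed without MLL4 KO replicate 2), CDC25C (0.0768 with upper-quartile scaling, and 0.117, 0.151 and 0.0103 with WT replicate 2, MLL4 KO replicate 1 or control replicate 1 left out) and KIF2C (0.0721 without WT replicate 2). Upper-quartile scaling changed the split of all called genes in MLL4 KO from 1536 higher and 1683 lower to 1886 and 1211, in the difference of the effects from 1304 and 1400 to 1588 and 1080, and in control against WT from 3341 and 3321 to 3691 and 3018. With the replicate number as a block, which the labels do not tie to a shared culture or day, 26 genes of the list passed in MLL4 KO, 55 in BAP1 KO, 55 in the difference and 56 in control against WT, and 25 and 58 of the wider list in the 2 knockouts. The MLL4 KO calls of CDK1 (adjusted p = 0.0662), LMNB1 (0.0738), CDCA8 (0.0574) and RBL2 (0.0533) were among those lost under the block. With the MLL4 KO numbers crossed, chosen after seeing the data, 32 of the list and 35 of the wider list passed in MLL4 KO under the block.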
